A study of Mus musculus with 30 samples.

Results

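White adipocyte genes and adipokines were followed in the aorta and kidney of mice on a high-fat or a standard diet. The set held 10 of the 41128 genes in the count tables, chosen by name: the adipokines Adipoq (adiponectin), Lep (leptin), Retn (resistin) and Cfd (adipsin), the lipid droplet and lipolysis genes Plin1 and Lipe, the fatty acid uptake genes Lpl and Fabp4, the transcription factor Pparg and the carbonic anhydrase Car3. All 10 were present in both tables and all 10 passed the filter on low counts in both tissues.

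Mice carried a tamoxifen-inducible Cre under the smooth muscle myosin heavy chain promoter (SMMHC-Cre). In KO mice this Cre met a loxP-flanked Egfr gene, for deletion of Egfr in vascular smooth muscle cells, whereas WT mice carried the Cre without loxP sites. All mice, WT included, were male, of the C57Bl6J background according to the labels, and received tamoxifen. They were then fed a high-fat diet (HFD) or a standard-fat diet (SFD) for 18 weeks from an age of 6 weeks. RNA was sequenced from 14 aortae (WT-SFD n = 3, WT-HFD n = 4, KO-SFD n = 3, KO-HFD n = 4) and 16 kidneys (n = 4 per group), each library from 1 mouse, and 3 mice gave both tissues. Total counts were 6403699 to 13052870 per aorta and 16354880 to 28331314 per kidney. Levels are given as fragments per 1000000 fragments of the library (FPM), with libraries scaled within a tissue, and libraries are named by group and mouse number. Aortae had been cleaned of adjacent fat and connective tissue before freezing.

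White adipocytes store triacylglycerol in a single lipid droplet coated by perilipin 1, take up fatty acids that lipoprotein lipase releases from circulating lipoproteins, and hydrolyse the store through hormone-sensitive lipase (Lipe). They secrete adiponectin, leptin, resistin and adipsin. Leptin secretion is known to follow fat cell size and fat mass, and adipsin expression is known to be low in obese rodents. Pparg is the master regulator of adipocyte differentiation. Fat around the mouse thoracic aorta also holds brown adipocytes, which share most of these genes.

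Egfr was read first, as a check on the genotype labels. In aorta it stood at 46.7, 39.5 and 54.3 FPM in WT-SFD and 26.8, 35.5 and 28.0 FPM in KO-SFD, and at 51.2 to 65.1 FPM in WT-HFD and 27.5 to 40.6 FPM in KO-HFD. The KO aortae lay below the WT aortae on both diets without overlap, although the difference was not called (adjusted p = 0.531 on SFD and 0.130 on HFD, edgeR quasi-likelihood test). Of all genes tested in aorta, 4.37% on SFD and 2.03% on HFD were lower in KO without overlap. In kidney, where smooth muscle is a small part of the tissue, Egfr overlapped between genotypes (36.9 to 58.4 FPM in WT and 40.5 to 60.8 FPM in KO).

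The start regions of the 4 adipokine genes are shown because in kidney Lep stood apart from the other 3, with r of -0.52 to 0.08 to each of them over 16 kidneys, while these had r of 0.74 to 0.91 among themselves. Each line gives the 150 bases before the annotated start (RefSeq, build GRCm38.p6, + strand, 5′ to 3′). Capitals mark a match on either strand to 1 of 4 motifs: TATAAA (the TATA box), CCAAT, TTGCNNAA (a site of the C/EBP family) or AGGTCA (a nuclear receptor half-site).
Adipoq, chr16:23146386-23146535: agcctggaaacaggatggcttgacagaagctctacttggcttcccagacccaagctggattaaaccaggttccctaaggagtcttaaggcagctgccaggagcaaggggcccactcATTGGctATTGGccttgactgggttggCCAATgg
Lep, chr6:29060071-29060220: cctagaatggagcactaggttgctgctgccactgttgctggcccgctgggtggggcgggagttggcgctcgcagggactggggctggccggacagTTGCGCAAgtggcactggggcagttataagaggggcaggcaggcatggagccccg
Retn, chr8:3655620-3655769: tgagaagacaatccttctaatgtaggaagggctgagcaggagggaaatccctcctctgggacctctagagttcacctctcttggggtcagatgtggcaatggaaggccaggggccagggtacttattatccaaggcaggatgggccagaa
Cfd, chr10:79890703-79890852: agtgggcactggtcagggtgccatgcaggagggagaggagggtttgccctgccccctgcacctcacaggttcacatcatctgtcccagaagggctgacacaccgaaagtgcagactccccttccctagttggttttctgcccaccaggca
Adipoq held CCAAT 3 times, on both strands, and Lep held 1 TTGCNNAA match, and none of these matches overlapped another motif. Retn and Cfd held none of the 4 motifs in this window. Promoter windows were present for 7 of the 10 genes (Adipoq, Lep, Retn, Cfd, Plin1, Pparg and Lipe). TTGCNNAA also stood in windows of Plin1 and Pparg, and CCAAT in windows of Pparg. Within the set TTGCNNAA was therefore not particular to Lep. TTGCNNAA stood in 5.46% of all 32851 promoter windows of this length, CCAAT in 24.5%, TATAAA in 7.57% and AGGTCA in 8.58%, and at least 1 of the 4 in 39.4%. A match is a string of letters and not evidence of binding.

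In aorta the level of adipocyte transcripts ranged widely between libraries, and the summed level of the 10 genes ran from 104 FPM in KO-HFD-1505 to 5829 FPM in WT-SFD-1309. Adiponectin (Adipoq), an adipocyte-restricted hormone, measured 195, 148 and 5.20 FPM in WT-SFD against 8.57, 4.82, 9.38 and 14.8 FPM in WT-HFD. In KO it stood at 111, 47.8 and 4.89 FPM on SFD and at 2.93, 9.20, 5.52 and 1.37 FPM on HFD. Thus 2 of 3 aortae of each SFD group were rich in Adipoq, the third (WT-SFD-1445 and KO-SFD-1507) lay within the range of the HFD aortae, and both SFD groups overlapped with HFD.

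The other adipokines were also higher in these 4 SFD aortae than in most other libraries. Resistin (Retn) was at 68.4, 61.9 and 0.289 FPM in WT-SFD against 2.14, 1.61, 1.77 and 1.66 FPM in WT-HFD, and at 41.4, 12.3 and 3.08 FPM in KO-SFD against 0.611, 1.69, 0.240 and 0.137 FPM in KO-HFD. Adipsin (Cfd), the complement factor D protease of adipose tissue, was at 638, 329 and 13.9 FPM in WT-SFD against 25.5, 11.6, 16.3 and 18.3 FPM in WT-HFD, and at 304, 135 and 11.5 FPM in KO-SFD against 4.77, 11.5, 6.24 and 3.83 FPM in KO-HFD. In KO the groups did not overlap for either gene, although for Cfd only by the margin of 11.512 FPM in KO-SFD-1507 over 11.458 FPM in KO-HFD-1503 (127 and 122 fragments), whereas WT-SFD-1445 fell within or below the HFD aortae. Leptin (Lep) was scarce, with 4.78, 7.28 and 0.578 FPM in WT-SFD, 0, 0.1005, 3.86 and 1.53 FPM in WT-HFD, 5.89, 2.79 and 0.997 FPM in KO-SFD and 1.10, 1.22, 1.28 and 0.684 FPM in KO-HFD. The 0 rests on a library of 9460851 counts, and WT-HFD-1447, with 37 Lep counts, exceeded 3 of the 6 SFD aortae.

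The droplet, uptake and regulator genes and Car3 repeated the pattern. Perilipin 1 (Plin1) was at 298, 223 and 5.49 FPM in WT-SFD, 7.84 to 24.4 FPM in WT-HFD, 141, 52.4 and 6.44 FPM in KO-SFD and 2.19 to 10.9 FPM in KO-HFD. Lipe, hormone-sensitive lipase, was at 347, 252 and 12.6 FPM in WT-SFD, 14.2 to 26.3 FPM in WT-HFD, 195, 62.0 and 14.5 FPM in KO-SFD and 10.5 to 22.8 FPM in KO-HFD. Of the 5886 exon bases of Lipe, 918 are shared with an antisense gene, 4732471J01Rik. Since the strand setting of the counting is not given in the sources used here, reads within this shared stretch cannot be assigned to 1 of the 2 genes. Lipoprotein lipase (Lpl) was at 1512, 1464 and 87.1 FPM in WT-SFD, 69.7 to 120.1 FPM in WT-HFD, 1031, 273 and 59.6 FPM in KO-SFD and 42.7 to 84.8 FPM in KO-HFD. Fabp4, the adipocyte fatty acid binding protein, also made by capillary endothelium, was at 1290.0, 1093 and 37.0 FPM in WT-SFD, 42.1 to 68.3 FPM in WT-HFD, 932, 299 and 43.4 FPM in KO-SFD and 25.9 to 59.1 FPM in KO-HFD. Pparg was at 66.3, 37.5 and 2.74 FPM in WT-SFD, 4.48 to 4.99 FPM in WT-HFD, 49.4, 16.4 and 1.72 FPM in KO-SFD and 2.46 to 5.35 FPM in KO-HFD. Car3, an abundant adipocyte enzyme, was at 1408, 1157 and 59.6 FPM in WT-SFD, 42.4 to 71.8 FPM in WT-HFD, 1299, 433 and 55.1 FPM in KO-SFD and 10.3 to 51.2 FPM in KO-HFD, and in KO it did not overlap between diets. Each of these 6 genes was highest in WT-SFD-1309, WT-SFD-1310, KO-SFD-1319 and KO-SFD-1452, and the other 10 aortae lay below these 4.

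**Figure D1:**
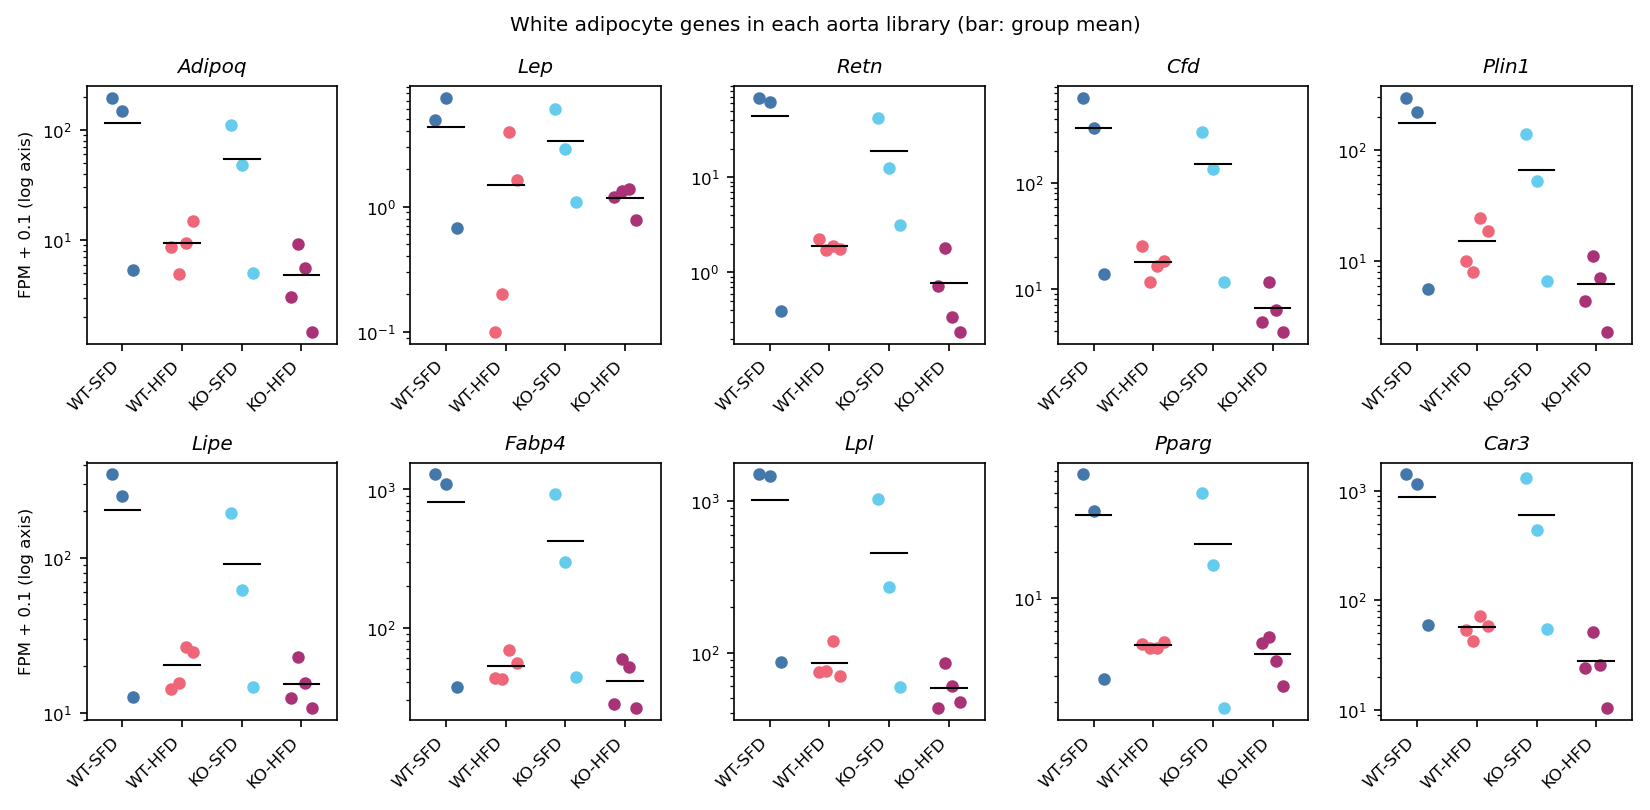
FPM + 0.1 on a log axis of the 10 genes in each of the 14 aortae, by genotype and diet. Each point is 1 library and the bar is the group mean. In every panel 2 of 3 SFD aortae of each genotype lie at or near the top, for example Adipoq at 195 and 148 FPM in WT-SFD, while the third lies near the HFD aortae.

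Per kilobase of transcript, the order of the mean levels in WT-SFD aorta was Fabp4 (900 FPM per kilobase), Car3 (521), Cfd (355), Lpl (248), Adipoq (90.0), Plin1 (62.3), Lipe (56.5), Retn (38.2), Pparg (20.1) and Lep (1.29). The SDs were nearly as large as the means (for Fabp4 807 ± 674 FPM, SD, n = 3), and differences between neighbours in this order were not tested. Across the 14 aortae, Pearson's r of log2 CPM ranged from 0.913 to 0.993 over the 36 pairs without Lep and from 0.660 to 0.792 over the 9 pairs with Lep. These are descriptions over libraries that share scaling and group, and for Lep also low counts.

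HFD was compared with SFD to ask whether adipocyte genes in the vessel follow the diet. All 10 genes were lower on HFD in both genotypes as fitted, but none was called at an adjusted p under 0.05 (edgeR quasi-likelihood test over 14796 genes). In WT the fitted log2 fold change was lowest for Retn (-4.59, SE 1.03, adjusted p = 0.0674) and closest to 0 for Lep (-1.67, SE 0.86, adjusted p = 0.341), and the other 8 lay between -4.19 (Cfd) and -2.92 (Pparg). Single libraries moved these WT values: Lep ran from -3.13 without WT-HFD-1447 to -0.99 without WT-SFD-1310, and without WT-SFD-1309 Cfd was at -3.26 and Pparg at -2.13. In KO it ran from -4.72 for Retn (SE 1.17, adjusted p = 0.526) to -1.48 for Lep (SE 0.92, adjusted p = 0.714). These KO values rested much on KO-SFD-1319: without it they ran from -3.44 for Cfd to -0.67 for Lep, with Lpl at -1.50 (from -2.95), Lipe at -1.30 (from -2.56) and Pparg at -1.06 (from -2.43). Among all genes tested, 0% were called in either comparison. At an unadjusted p under 0.05, 9 of the 10 (all but Lep) were lower in each genotype, beside 11.3% of all genes in WT and 5.11% in KO. In KO the diets did not overlap for Retn, Cfd and Car3, beside 3.59% of all genes that were lower without overlap.

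The count of calls in WT aorta depended on single libraries and on the tool. Without WT-SFD-1445, 9 of the 10 genes were called lower, beside 12.4% of all genes. Without KO-SFD-1319 or KO-SFD-1507, which are in neither group of this comparison but bear on the shared estimate of spread and on which genes pass the filter (15226 and 15291 genes tested), 9 were called too, beside 4.14% and 2.86%. DESeq2 on all libraries also called 9, beside 4.36% of all genes. Scaling by library totals and testing without the filter on low counts each gave 8, beside 2.11% and 1.29% of all genes. In KO, DESeq2 called Car3 alone (adjusted p = 0.0464) beside 0.0112% of all genes, and edgeR without KO-SFD-1507 called Cfd and Car3 (adjusted p = 0.0447 each) beside 0.0981%. Leaving out WT-SFD-1445 and KO-SFD-1507 together, gave 9 in each genotype, beside 13.8% of all genes in WT and 4.16% in KO. These 2 libraries were chosen after seeing that they were the SFD aortae low in these genes, so that the gain follows from the choice and supports nothing. Fewer fat cells and less RNA per fat cell cannot be told apart in these bulk libraries, here or in kidney, and the amount of fat left at dissection was not measured.

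**Figure D2:**
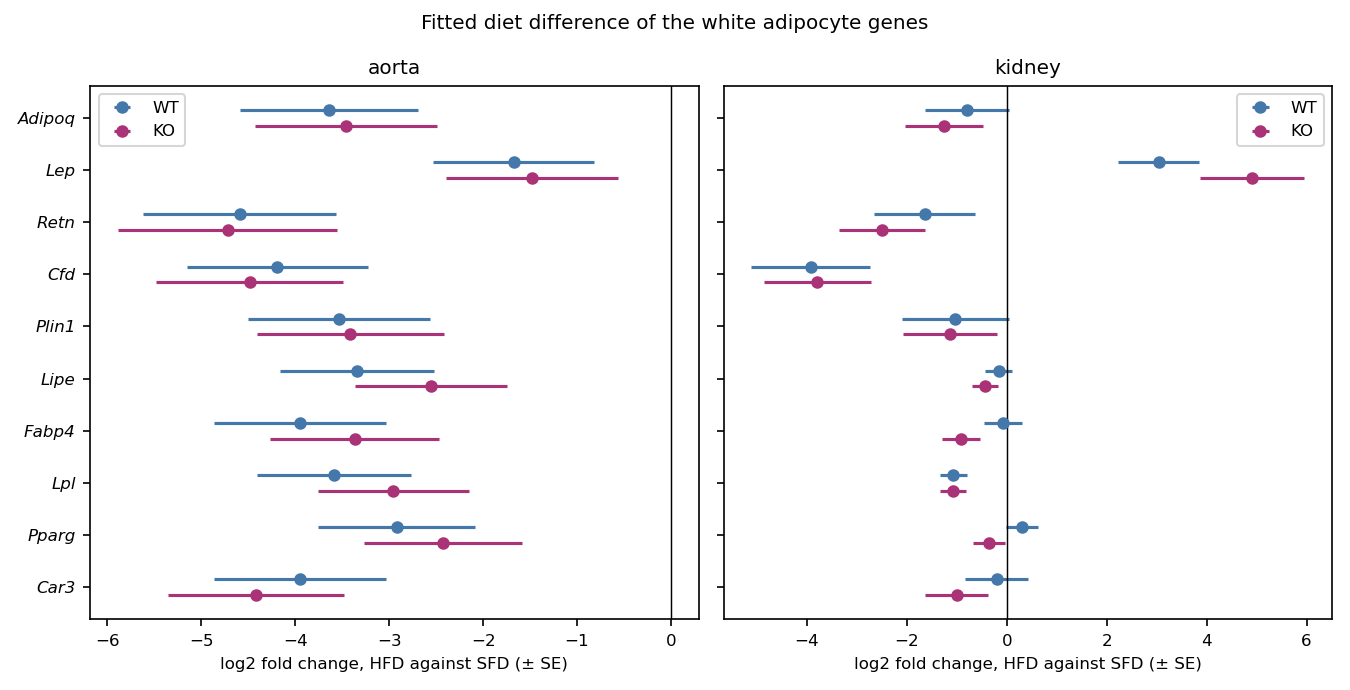
Fitted log2 fold change of HFD against SFD for the 10 genes in aorta (left) and kidney (right), with bars of 1 SE, in WT and KO. In aorta all 20 values lie below 0, and in kidney Lep lies above 0 in both genotypes (3.04 in WT and 4.91 in KO) while Cfd lies at -3.93 and -3.79.

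Other adipocyte lipid genes were lower on HFD as fitted, as the set was, while the lists of transcription factors and stroma markers were mixed. Of 27 other adipocyte lipid genes tested, 27 were below 0 in WT aorta (median log2 fold change -3.28, beside -0.01 over all genes) and 27 in KO (median -2.45, beside -0.00 over all genes), and none was called. Of 19 adipogenic transcription factors and partners, 13 were below 0 in each genotype and 6 above, with a median of -0.11 (WT) or -0.32 (KO). Of 8 preadipocyte and adventitial stroma markers, 2 were below 0 in WT and 5 in KO. Scd1, the stearoyl-CoA desaturase and the most abundant of them, was at 15928, 12088 and 326 FPM in WT-SFD and at 160 to 594 FPM in WT-HFD. The 10 genes outside the set and the lists that followed its mean most closely were Ces1d, Clstn3, Cyp2f2, Mgst1, Slc36a2, Pcx, Apoc1, Acacb, Pla2g16 and Slc25a1, with r from 0.983 to 0.991 over 14 aortae. This too is a description over libraries that share scaling and groups. Ces1d, a carboxylesterase of fat and liver, was at 249.8, 147 and 5.92 FPM in WT-SFD and at 3.92 to 11.2 FPM in WT-HFD.

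Brown adipocyte markers, as a sum, were highest in the same libraries as the white adipocyte genes. Of 14 listed, 13 were tested, 12 of these were below 0 in WT and 12 in KO, and Zic1 was at 0 in every library but lies on chromosome 9, of which no gene had a count in either table. Their summed level was 1605, 1039 and 180 FPM in WT-SFD, 239 to 306 FPM in WT-HFD, 923, 512 and 189 FPM in KO-SFD and 243 to 265 FPM in KO-HFD. Prdm16, also expressed outside fat, was the most abundant by its mean over the 14 aortae (157 FPM), although Ucp1 exceeded it in WT-SFD-1309 and WT-SFD-1310. Ucp1, the uncoupling protein that defines brown fat, was at 580.2, 256 and 3.03 FPM in WT-SFD, 3.98 to 27.5 FPM in WT-HFD, 194, 73.3 and 0.544 FPM in KO-SFD and 1.505 to 18.2 FPM in KO-HFD. The 4 aortae rich in Adipoq were thus the 4 richest in Ucp1, and the list held no gene of the set.

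Smooth muscle markers were lowest in 3 of these libraries. Their summed level, carried by 4 of 6 genes with Acta2 the most abundant, was 9437, 11660 and 14540 FPM in WT-SFD, 14980 to 15740 FPM in WT-HFD, 10150, 15230 and 15830 FPM in KO-SFD and 14140 to 17060 FPM in KO-HFD. The 3 lowest sums were those of WT-SFD-1309, KO-SFD-1319 and WT-SFD-1310, and Cnn1 and Tagln, on chromosome 9 too, were at 0 throughout. The 0 of these genes therefore says nothing of their expression. Cardiac muscle markers summed to 338 FPM in WT-SFD-1310 and to 5.46 to 55.2 FPM elsewhere, and the part of tissue makeup in the diet difference was not tested.

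**Figure D3:**
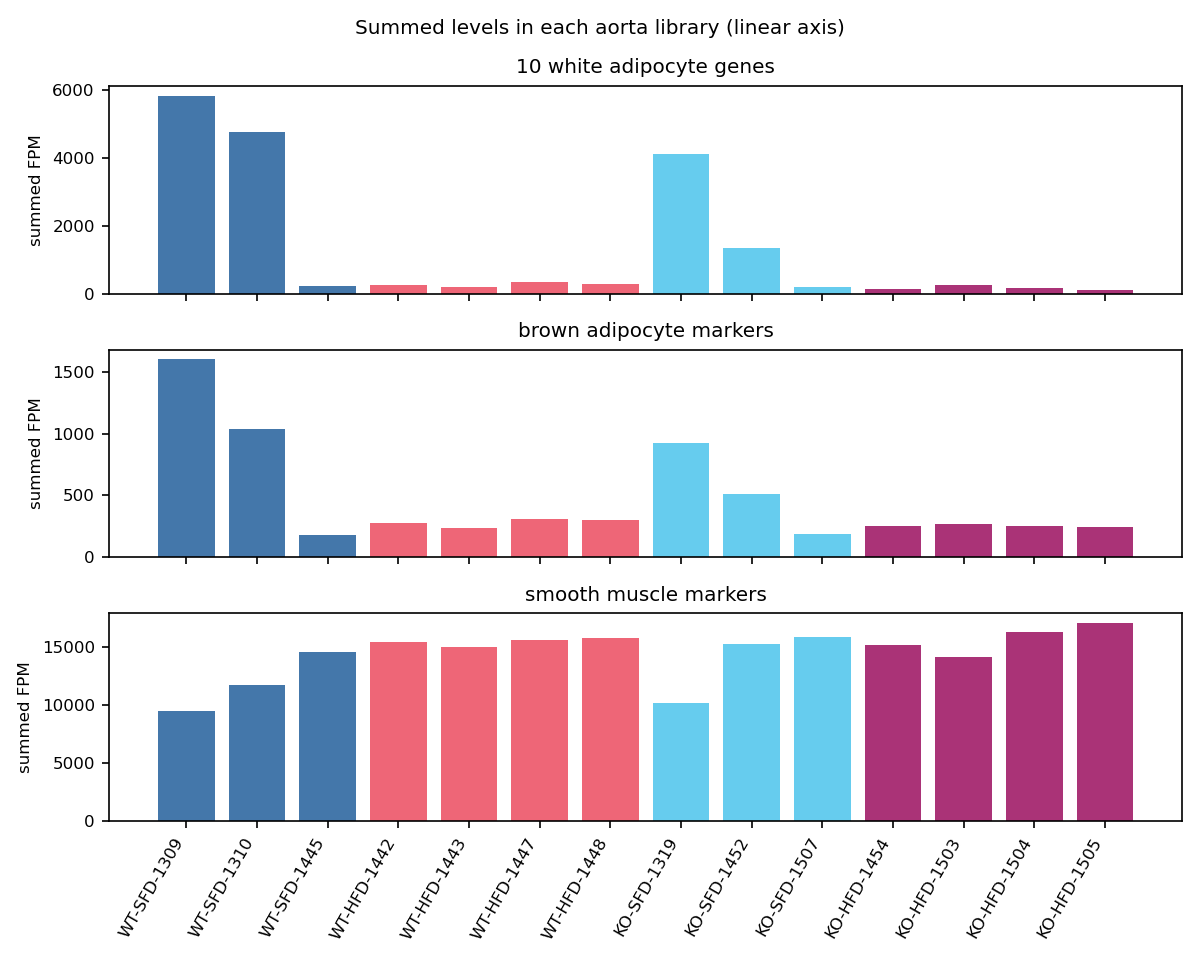
Summed FPM of the 10 white adipocyte genes (top), the brown adipocyte markers (middle) and the smooth muscle markers (bottom) in each aorta, on linear axes from 0, coloured by group. The aortae with the highest white adipocyte sums (5829, 4773, 4110 and 1334 FPM) also have the highest brown adipocyte sums, and 3 of them have the lowest smooth muscle sums.

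The genotypes were compared to ask whether loss of Egfr in smooth muscle changed these genes. All 10 were below 0 in KO aortae on SFD (log2 fold change -1.41 for Plin1 to -0.49 for Lep) and on HFD (-1.42 for Cfd to -0.18 for Pparg), and none was called (lowest adjusted p = 0.809 and 0.999). On SFD, Plin1 was at -2.60 without KO-SFD-1319 and at -0.80 without WT-SFD-1309. None reached an unadjusted p under 0.05, DESeq2 called none, and 0.0811% of all genes were called in each comparison. On HFD, Cfd was lower in all 4 KO aortae than in any WT aorta (3.83 to 11.5 against 11.6 to 25.5 FPM), beside 2.03% of all genes lower without overlap. The change of the diet effect with genotype was called for no gene of the set (adjusted p of at least 0.998) and for 0% of all genes, with none at an unadjusted p under 0.05 and none called by DESeq2.

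In kidney, Lep was called higher and Lpl lower on HFD in KO. As fitted, 9 of the 10 genes (all but Lep) were below 0 on HFD in KO and 8 (all but Lep and Pparg) in WT. Lep and Lpl did not overlap between diets in either genotype, Cfd did not overlap in WT, and the other 7 genes overlapped in both. Lep stood at 0, 0.691, 0.206 and 1.57 FPM in WT-SFD against 4.53, 7.14, 2.39 and 5.97 FPM in WT-HFD, and at 0.193, 0.162, 0.153 and 0.218 FPM in KO-SFD against 1.74, 2.29, 17.2 and 2.66 FPM in KO-HFD. No HFD kidney overlapped with an SFD kidney of its genotype. The fitted log2 fold change of Lep was 4.91 (SE 1.04, adjusted p = 0.0158, called) in KO and 3.04 (SE 0.81, adjusted p = 0.111) in WT. Without KO-HFD-1520 the KO value was 3.59, and without WT-SFD-1695 the WT value was 4.20. The KO-SFD values rest on 3 or 4 fragments per library and KO-HFD-1520 on 271, against 32 to 53 in the other KO-HFD kidneys. The KO call was lost without KO-SFD-1318 (adjusted p = 0.0653) or KO-SFD-1319 (adjusted p = 0.0554) and in a fit of the 2 groups alone (adjusted p = 0.0517), while Lep in WT was called in that fit (adjusted p = 0.0419) and without KO-HFD-1520 (adjusted p = 0.00238).

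Lpl, highly expressed in mouse kidney, was at 648, 739.9, 895 and 935 FPM in WT-SFD against 189, 415, 582 and 349.6 FPM in WT-HFD, and at 734, 694, 629.5 and 983 FPM in KO-SFD against 499, 346, 326 and 273 FPM in KO-HFD. The diets did not overlap in either genotype. The fitted log2 fold change was -1.07 in both (SE 0.27 in each), with an adjusted p of 0.0762 in WT and 0.0423 (called) in KO. The KO call for Lpl was lost on leaving out any 1 of 9 libraries (adjusted p 0.052 to 0.14), and in WT Lpl was called by DESeq2 (adjusted p = 0.00569) and without WT-HFD-1641 (adjusted p = 0.0188). Over 16 kidneys the r of Lpl with the 8 genes other than Lep ran from 0.164 to 0.692, with the highest values for Cfd and Retn (0.618) and a median of 0.292, against a median of 0.787 over the 28 pairs without Lep and Lpl.

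Cfd was at 6.51, 72.4, 8.09 and 73.0 FPM in WT-SFD against 5.00, 1.99, 1.14 and 2.05 FPM in WT-HFD, and at 82.9, 15.5, 10.2 and 238 FPM in KO-SFD against 12.4, 10.3, 1.77 and 0 FPM in KO-HFD. In WT the diets did not overlap, and in KO the highest HFD kidneys lay between the lower SFD kidneys. The log2 fold change was -3.93 in WT (SE 1.18, adjusted p = 0.201) and -3.79 in KO (SE 1.08, adjusted p = 0.0818), and neither was called. Without KO-SFD-1451 the KO value was -2.54. Thus Lep and Lpl were the 2 genes of the set called in KO and none was called in WT, beside 2.39% and 0.964% of all 15034 genes. Higher on HFD without overlap was Lep in each genotype, beside 3.02% of all genes in WT and 5.02% in KO. Lower without overlap were Cfd and Lpl in WT, beside 1.99%, and Lpl in KO, beside 3.85%.

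Adipoq itself overlapped widely between the diets in kidney, with 1.36, 11.5, 2.40 and 12.7 FPM in WT-SFD, 5.37, 5.66, 2.33 and 2.34 FPM in WT-HFD, 14.9, 3.02, 1.84 and 31.7 FPM in KO-SFD and 5.80, 5.36, 9.81 and 1.06 FPM in KO-HFD. Plin1 ran from 1.30 to 17.1, from 0.966 to 7.03, from 1.29 to 41.2 and from 0.453 to 14.9 FPM in the same groups, and Retn from 0.759 to 6.22, from 0.602 to 1.99, from 1.02 to 22.8 and from 0.352 to 3.04 FPM. The SFD kidneys WT-SFD-1446, WT-SFD-1695, KO-SFD-1303 and KO-SFD-1451 were high in all 3 genes. Lipe ran from 16.7 to 56.8 FPM, Fabp4 from 49.5 to 260.4 FPM, Car3 from 13.3 to 199 FPM and Pparg from 2.28 to 7.43 FPM over all 16 kidneys. None of these 7 genes was called for diet (adjusted p of at least 0.159, for Retn in KO).

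**Figure D4:**
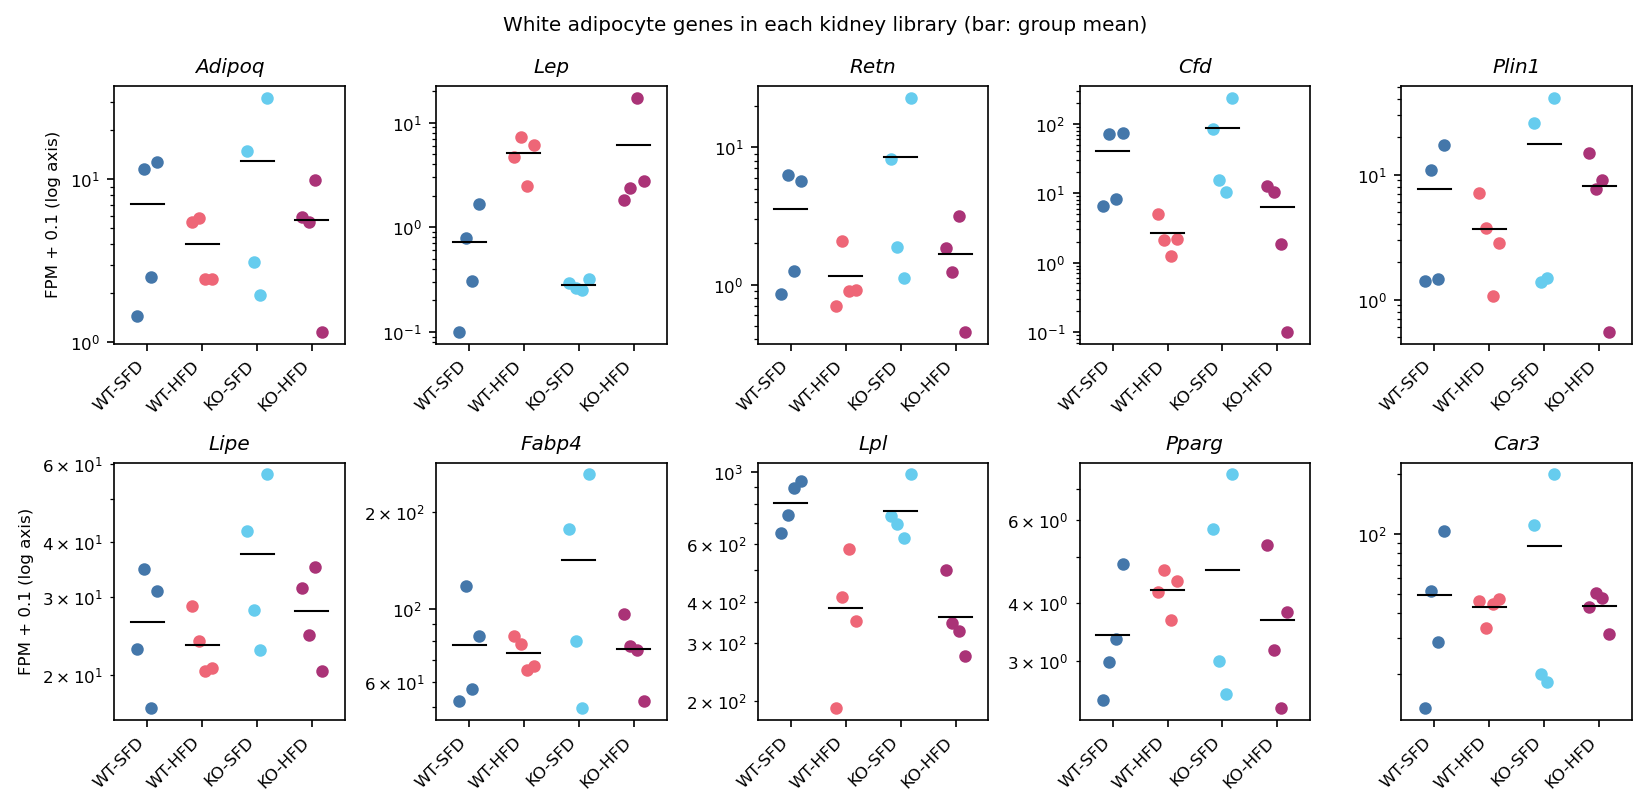
FPM + 0.1 on a log axis of the 10 genes in each of the 16 kidneys, by genotype and diet, with 1 point per library and a bar at the group mean. Lep is higher in every HFD kidney than in any SFD kidney of its genotype and Lpl lower, while Adipoq, Plin1 and Retn overlap between diets.

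Because Adipoq ranged widely between kidneys of 1 group, each gene was also set against Adipoq in the same library, a measure chosen after the values had been seen and given as a description. The ratio of Lep to Adipoq was 0, 0.0601, 0.0857 and 0.123 in WT-SFD against 0.845, 1.26, 1.02 and 2.55 in WT-HFD, and 0.0129, 0.0536, 0.0833 and 0.0069 in KO-SFD against 0.299, 0.427, 1.75 and 2.52 in KO-HFD. The ratio of Cfd to Adipoq was 4.80, 6.30, 3.37 and 5.74 in WT-SFD against 0.931, 0.351, 0.488 and 0.878 in WT-HFD, and 5.57, 5.14, 5.53 and 7.51 in KO-SFD against 2.14, 1.93, 0.181 and 0 in KO-HFD. The spread of Cfd among SFD kidneys thus shrank from 6.51 to 238 FPM to a ratio of 3.37 to 7.51. The ratio of Retn to Adipoq was 0.437 to 0.560 in WT-SFD against 0.112 to 0.351 in WT-HFD, and 0.544 to 0.721 in KO-SFD against 0.210 to 0.333 in KO-HFD.

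In both genotypes Lep was thus higher, and Cfd and Retn lower, relative to Adipoq on HFD without overlap. Of all genes, 0.226% in WT and 0.273% in KO were higher relative to Adipoq without overlap, and 0.0133% in WT and 0.02% in KO lower. The lower shares stand for 2 genes in WT, which were Retn and Cfd themselves, and 3 genes in KO, of which Retn and Cfd were 2. These shares are over all genes tested and not over adipocyte genes. Set against Plin1 in place of Adipoq, Cfd was lower without overlap in both genotypes (beside 0.00665% of all genes in WT and 0.0133% in KO), Lep was higher in WT alone (beside 0.133%) and Retn overlapped in both. In WT aorta no gene of the set separated the diets by its ratio to Adipoq. In KO aorta Retn per Adipoq was lower on HFD without overlap (0.257 to 0.630 on SFD against 0.0435 to 0.208), as was Car3, beside 0.0811% of all genes, and Pparg was higher, beside 3.66%. The Lep and Cfd ratios to Adipoq overlapped there. Set against Plin1, Retn, Cfd and Car3 were lower in KO aorta, beside 0.0946% of all genes, and Pparg was higher, beside 4.84%.

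**Figure D5:**
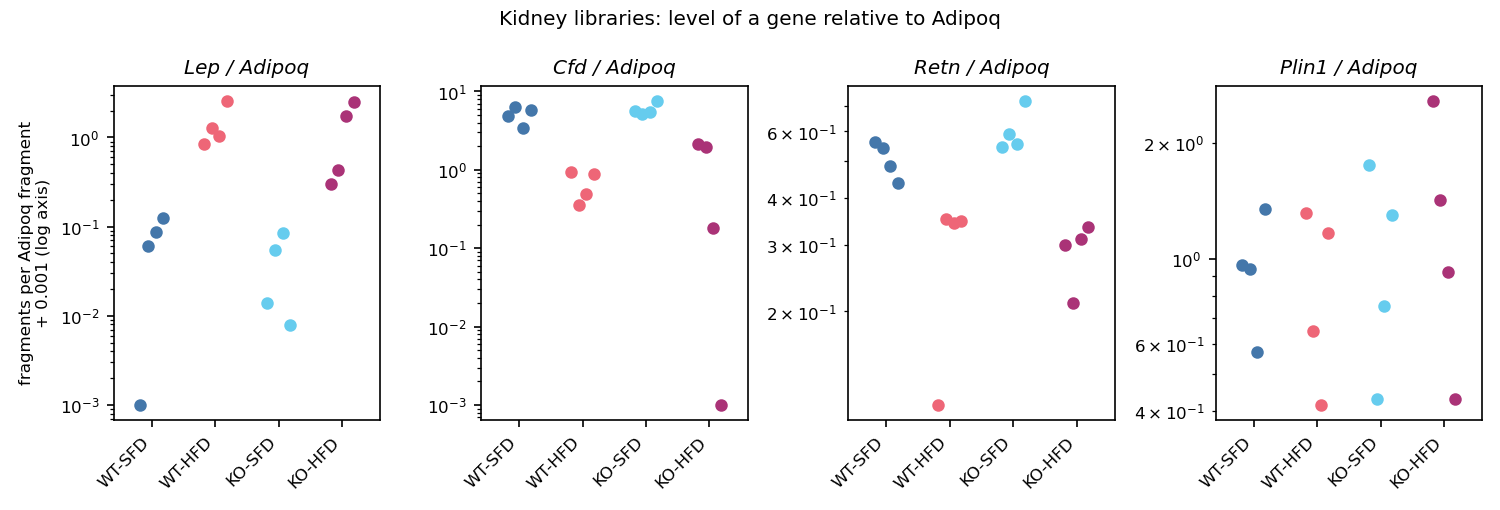
Fragments of Lep, Cfd, Retn and Plin1 per fragment of Adipoq, plus 0.001, in each of the 16 kidneys on log axes, 1 point per library. Lep per Adipoq lies at 0 to 0.123 on SFD and 0.299 to 2.55 on HFD, Cfd per Adipoq at 3.37 to 7.51 on SFD and 0 to 2.14 on HFD, and Plin1 per Adipoq overlaps between diets.

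Per kilobase of transcript, the mean level over all 16 kidneys was highest for Lpl (140.3 FPM per kilobase) and Fabp4 (103), followed by Cfd (36.7), Car3 (33.1), Lipe (7.94), Adipoq (5.67), Plin1 (3.26), Retn (3.18), Pparg (2.22) and Lep (0.903). Over all kidneys Lpl was at 577 ± 246 FPM and Fabp4 at 91.9 ± 54.7 FPM (SD, n = 16), and these neighbours differed per kilobase by less than their spread. The order depended on diet: in WT-HFD kidneys Cfd was at 2.76 FPM per kilobase, below Car3 (25.6), Lipe (6.45) and Adipoq (3.04), and Lep (1.54) stood above Plin1 (1.28) and Retn (0.922). The genes outside the set and lists that followed its mean most closely included Mrap, Slc36a2, Apoc1, Apol6, Pnpla3, A530016L24Rik, Ntrk2, Abcd2 and Nat8l (r from 0.882 to 0.937 over 16 kidneys), and Slc36a2 and Apoc1 were among the 10 closest in aorta too. Ucp1 was at 0 to 31.7 FPM, with 31.7 and 22.1 FPM in KO-SFD-1303 and KO-SFD-1451 and 28.0 FPM in KO-HFD-1437.

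Genes that act with the set were read from fixed lists. Of 6 complement partners of adipsin, Cfi, the factor I protease that degrades C3b, was called higher in WT (1.76 to 2.71 against 3.81 to 5.51 FPM, log2 fold change 1.00, SE 0.22, adjusted p = 0.0316) and was at 2.60 to 3.53 against 2.55 to 5.18 FPM in KO (0.44, SE 0.21, adjusted p = 0.323). Of 26 other adipocyte lipid genes, 4 were called lower in KO and none in WT, beside 2.39% and 0.964% of all genes called in either direction, which are the shares for the other lists too. These were Scd1 (log2 fold change -1.79, SE 0.43, adjusted p = 0.0345), the acetyl-CoA carboxylase Acaca (-1.26, SE 0.32, adjusted p = 0.0477), the aquaglyceroporin Aqp7 (-0.61, SE 0.12, adjusted p = 0.0108) and the insulin-responsive glucose transporter Slc2a4 (-0.53, SE 0.10, adjusted p = 0.00886), and kidney tubules are known to express Aqp7. In KO, Scd1 overlapped between diets, with 716, 177, 235 and 938 FPM on SFD against 202, 164, 163 and 70.2 FPM on HFD. The highest of these were KO-SFD-1303 and KO-SFD-1451. In WT, Scd1 did not overlap, with 205 to 344 FPM on SFD against 118 to 160 FPM on HFD, although it was not called. Of 18 relatives of the set's gene families tested, the liver-type fatty acid binding protein Fabp1 (3.51, SE 0.56, adjusted p = 0.00175) and the perilipin Plin3 (0.53, adjusted p = 0.0376) were called higher in KO and none in WT. None of 7 adipokine receptors, none of 17 adipogenic transcription factors and partners and none of 11 brown adipocyte markers tested was called in either genotype. Cdh13, also on the receptor list, lies on chromosome 8, was at 0 in every library of both tissues and was not tested. The 9 kidney tubule markers summed to 16140 to 19980 FPM, with Slc34a1 the most abundant and none at 0. Among them the glucose transporter Slc5a2 was called higher on HFD in WT (1.20, SE 0.21, adjusted p = 0.0053) and KO (1.54, SE 0.21, adjusted p = 0.00059), and the sodium chloride cotransporter Slc12a3 in KO (0.71, SE 0.14, adjusted p = 0.0124). Their part in the results of the set was not tested.

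Between genotypes, no gene of the set was called in kidney. On SFD 8 of 10 were above 0 in KO (log2 fold change up to 1.35 for Retn, which was 0.17 without KO-SFD-1451, adjusted p of at least 0.556) and Lep and Lpl below 0 (Lep -1.71, which was -0.55 without WT-SFD-1695), with 1 gene, Fabp4 (0.87, SE 0.38), higher at an unadjusted p under 0.05 beside 4.53% of all genes, and on HFD 8 of 10 were above 0 with none under that limit, and DESeq2 called none in either. Of all genes, 0.0133% were called on SFD and 0% on HFD. The diet effect did not change with genotype at an adjusted p under 0.05 for any gene of the set or for any other gene (0% of genes), with none of the set at an unadjusted p under 0.05 and none called by DESeq2, and the fitted change for Lep (1.87, SE 1.69) was 0.55 without KO-HFD-1520.

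Aorta and kidney were sequenced and scaled apart, so that their levels are set side by side only. Of the mice with both tissues, the mouse of WT-SFD-1309 had 195 FPM of Adipoq in its aorta, the highest of 14, and 1.36 FPM in its kidney. The mouse of KO-SFD-1319 had 111 FPM in aorta and 1.84 FPM in kidney, and that of KO-HFD-1504 had 5.52 and 5.36 FPM. The 2 SFD mice among them, whose aortae were rich in Adipoq, thus had the lowest Adipoq among the kidneys of their group.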

How the data were processed

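Gene counts were deposited by the authors in 1 table per tissue. Per the labels and the study's methods, reads were trimmed with cutadapt, aligned to mm10 with TopHat and counted per gene with featureCounts, and genes were annotated through BiomaRt. The strand setting and the treatment of reads with several matches are not given in the sources used here. Each column was tied to its library by its name, and 0 columns of samples were left unused. No gene on chromosome 9, X, Y or MT had a count in either table. Chromosome 8 had counts for 965 (aorta) and 867 (kidney) of its 1749 genes. Its listed genes Cdh5, Car7, Cdh13, Car5a, Acta1 and Agt were at 0 in every library of both tissues. All of these start at base 104101625 (Cdh5) or beyond, and their 0 is not read as absence of expression.

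Counts were tested with edgeR 4.0.16 in R 4.3.3 (TMM factors, low counts removed by group, 1 coefficient per group, quasi-likelihood test, Benjamini-Hochberg adjustment over all genes tested). All libraries of a tissue entered 1 fit, with calls made below an adjusted p of 0.05. SEs were taken from the fold change and its F statistic. FPM is the count divided by the library size times the TMM factor, times 1000000. Other settings were DESeq2 1.42.0, size factors or library totals for scaling, no filter, the 2 groups alone, a limit of 0.001 and leaving out each library. The steps were also run on simulated counts with a set change of 200 genes in WT-HFD, and the outcome is not reported here. Those counts did not hold the split among the SFD aortae, so that the run does not bear on the calls in aorta.

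Libraries of a group came from different mice and differed beyond sampling noise (lowest chi-square per degree of freedom 8.38), and intervals cover no error beyond these libraries. Total counts of 6403699 to 28331314 limit genes of few fragments, Lep above all. The genes and the lists were chosen with earlier results of these data known. Named were all 10 genes, up to 4 genes of a list (highest mean or called) and, per tissue, the 10 genes outside the lists with the highest r to the mean log2 CPM of the set. Some genes that this rule names are not reported here.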

Additional observations from a re-analysis of the deposited data

Results flagged for a closer look

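Among the groups of 4 libraries, 60 combinations of gene, tissue and group were looked at for a library far from the other 3, and 3 were found, where chance gives about 1 in 20. Lpl in aorta was at 120.1 FPM in WT-HFD-1447 (120 rounded) against 69.7 to 75.3 FPM in the other WT-HFD aortae. Lep in kidney was at 17.2 FPM in KO-HFD-1520 against 1.74 to 2.66 FPM in the other KO-HFD kidneys. Retn in kidney was at 1.99 FPM in WT-HFD-1613 against 0.602 to 0.812 FPM in the other WT-HFD kidneys. The cause of each was not tested.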

How the results depend on the processing

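Of 100 log2 fold changes of the 10 genes, 25 changed sign in at least 1 other fit, and 0 of these was called. Size factors and the older quasi-likelihood method changed no call. For HFD against SFD in WT aorta, the count of called genes (0) became 9 with DESeq2, 8 with library totals, 8 with no filter, 9 with WT-SFD-1445 and KO-SFD-1507 left out and 0 to 9 on leaving out 1 library. In KO aorta (0) it became 1 with DESeq2, 9 with both left out and 0 to 2 on leaving out 1 library. In WT kidney (0) it became 1 with DESeq2, 1 with the 2 groups alone and 0 to 1 on leaving out 1 library, and in KO kidney (2) 0 at a limit of 0.001, 1 with the 2 groups alone and 0 to 2 on leaving out 1 library. Library totals moved the median log2 fold change of all aorta genes by 0.111 (diet in WT), -0.109 (diet in KO), 0.291 (genotype on SFD) and -0.22 (interaction), and by less than 0.1 elsewhere. With them, Car3 in kidney (KO against WT on HFD) went from 0.01 to -0.0079 and Lpl in kidney (interaction) from -0.01 to 0.0029.

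Leaving out 1 library turned uncalled log2 fold changes over these ranges. For KO against WT in aorta these were, on SFD, Lep -1.30 to 0.19, Pparg -2.04 to 0.11 and Car3 -1.84 to 0.028, and on HFD, Lep -0.73 to 1.16. For the interaction in aorta they were Adipoq -0.41 to 1.26, Lep -0.49 to 1.64, Retn -1.25 to 1.22, Cfd -1.22 to 0.75, Plin1 -0.49 to 1.33, Pparg -0.30 to 1.86 and Car3 -1.05 to 0.83. For HFD against SFD in WT kidney they were Lipe -0.34 to 6.6e-05, Fabp4 -0.22 to 0.20 and Car3 -0.51 to 0.47. For KO against WT in kidney they were, on SFD, Adipoq -0.036 to 1.44 and Cfd -0.13 to 1.61, and on HFD, Lep -1.16 to 0.47, Fabp4 -0.10 to 0.18, Lpl -0.30 to 0.18 and Car3 -0.092 to 0.14. For the interaction in kidney they were Adipoq -0.99 to 0.48, Retn -1.32 to 0.34, Cfd -0.40 to 1.39, Plin1 -0.99 to 0.74 and Lpl -0.23 to 0.27. The cause was not tested. Leaving out WT-SFD-1445 with KO-SFD-1507, and taking ratios to Plin1, were added after seeing the data, and the first was chosen on these genes' own low values. No paired analysis was possible because the groups compared within a tissue share no mouse.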
